A study of Mus musculus with 6 samples.

Results

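The 10 genes described here are induced brakes and read-outs of receptor tyrosine kinase and ERK signalling: the MAP kinase phosphatase genes Dusp2, Dusp4, Dusp5, Dusp6 and Dusp10, the Sprouty family genes Spry1, Spry2, Spred1 and Spred2, and the transcription factor gene Etv5. They were chosen by name from the pathway, with earlier results of these data known. All 10 were matched by symbol to 1 Ensembl gene each among the 39179 genes of the count tables. The study asked how insulin-like growth factor signalling changes gene expression in mouse Th17 cells, the helper T cells that make IL-17. Its 3 desIgf1 libraries came from cultures with 30 ng/mL desIgf1, a truncated IGF1 that escapes IGF-binding proteins, and its 3 control libraries from cultures without it. All 6 shared the rest of the design, as far as the labels give it. Naive CD4+ T cells from spleens of C57BL/6 mice carrying reporter alleles IL-17a/hCD2, Ifn-γ/Thy1.1 and Foxp3/GFP were stimulated by soluble anti-CD3 at 5 µg/mL on irradiated, CD4-depleted spleen cells. IL-6 at 20 ng/mL and TGF-β at 2.5 ng/mL drove the Th17 fate, antibodies to IFN-γ and IL-4 at 10 µg/mL each blocked others, and cells were taken on day 5. The cells taken for RNA were sorted as carrying hCD2 and lacking Thy1.1 and GFP, which selects for Il17a-expressing cells. The protocol field lists desIgf1 for every library, and the groups here follow the titles, the descriptions and the series design. The labels used here give neither the age of the mice nor whether libraries of a group came from separate animals or cultures, and p-values therefore measure the spread between libraries.

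Ligand binding to a receptor tyrosine kinase such as the IGF1 receptor activates RAS, which starts the relay of RAF, MEK and ERK kinases. ERK then enters the nucleus and switches on genes that turn the relay down again. The dual-specificity phosphatases remove phosphate from MAP kinases, Sprouty and Spred proteins limit the activation of RAS and RAF, and Etv5 is an ETS transcription factor whose transcript is widely used as a read-out of ERK activity. In T cells the same relay also runs from the antigen receptor, which anti-CD3 engages.

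Etv5 and Spry2 were lower, and Dusp6 was higher, in every desIgf1 library than in every control library, and the other 7 genes overlapped between the groups. That is 2 of 10 wholly below, where 6.18% of all tested genes were, and 1 of 10 wholly above, where 7.31% were. The 250 bases before and 50 bases after 1 annotated start site of each of these 3 genes are shown (for Etv5, the first of 2 in the table), as transcribed, because they are the members whose libraries separated. Sequences are from RefSeq (GRCm38.p6), whose table matched 9 of the 10 members; Dusp4 was not matched. Capitals mark matches, on either strand, to an ETS core (CCGGAA) or a FOXO motif (GTAAACA), and AP-1 (TGANTCA) and CRE (TGACGTCA) letters were searched as well. No pair of these motifs overlapped in the sequences shown. The Etv5 window lies at chr16:22439521-22439820 on the minus strand, the Spry2 window at chr14:105896770-105897069 on the minus strand and the Dusp6 window at chr10:99262981-99263280 on the plus strand.
Etv5: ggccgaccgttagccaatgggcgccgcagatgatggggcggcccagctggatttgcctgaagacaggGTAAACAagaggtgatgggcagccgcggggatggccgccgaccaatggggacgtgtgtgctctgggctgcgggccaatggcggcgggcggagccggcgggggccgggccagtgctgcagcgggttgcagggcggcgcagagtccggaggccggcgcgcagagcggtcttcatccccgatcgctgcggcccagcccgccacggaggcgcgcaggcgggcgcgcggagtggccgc
Spry2: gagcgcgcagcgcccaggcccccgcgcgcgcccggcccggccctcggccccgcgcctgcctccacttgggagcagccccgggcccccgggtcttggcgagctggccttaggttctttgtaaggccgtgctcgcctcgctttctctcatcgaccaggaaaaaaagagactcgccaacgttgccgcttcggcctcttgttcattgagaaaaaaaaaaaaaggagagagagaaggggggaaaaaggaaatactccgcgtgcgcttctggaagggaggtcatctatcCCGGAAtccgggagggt
Dusp6: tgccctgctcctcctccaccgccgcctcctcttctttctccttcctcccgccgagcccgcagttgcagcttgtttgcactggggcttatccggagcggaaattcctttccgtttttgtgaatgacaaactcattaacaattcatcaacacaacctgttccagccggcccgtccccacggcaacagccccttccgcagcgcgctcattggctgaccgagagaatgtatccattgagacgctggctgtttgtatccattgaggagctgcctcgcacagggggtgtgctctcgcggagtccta

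The Etv5 window held 1 FOXO match, which began 183 bases before the start site. The Spry2 window held 1 ETS core match, which began at base 34 of the transcript. None of the 4 motifs, as spelled above, was found in the Dusp6 window or at the second start site of Etv5. The windows of Dusp2, Dusp5, Dusp10, Spry1, Spred1 and Spred2 held none either. The shorter letters GGAA, part of the ETS core as spelled, were not searched for and do occur in the Dusp6 window. Over all 32851 promoters of this length in the table, 14.9% held the ETS core, 7.81% AP-1, 1.79% CRE and 3.65% the FOXO motif. A match in such a window is a description of its letters and not evidence of binding.

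Gene counts summed to 34567899 to 47929948 per library, and all 10 members passed the filter on low counts, which left 13846 genes. Levels are given as CPM, that is, counts scaled to a common library total with TMM factors. In edgeR's quasi-likelihood test, 0 of the 10 members passed an adjusted p of 0.05, where 0% of all tested genes did, and 3 of the 10 had an unadjusted p under 0.05, where 8.16% of all tested genes did (limma voom also called 0 genes, with 1141 at an unadjusted p under 0.05). Libraries of both groups are numbered 1 to 3, and same-numbered libraries varied together, so each gene was also fitted with that number as a block. With the block 0 of the 10 members passed, where 0.318% of all genes did. DESeq2 called 1 member, Etv5, where it called 1.48% of its genes. The median log2 fold change was -0.04 over the 10 members and -0.01 over all tested genes, and 5 members lay on either side of 0. In bulk RNA, fewer cells expressing a gene and less RNA per cell cannot be told apart.

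**Figure D1:**
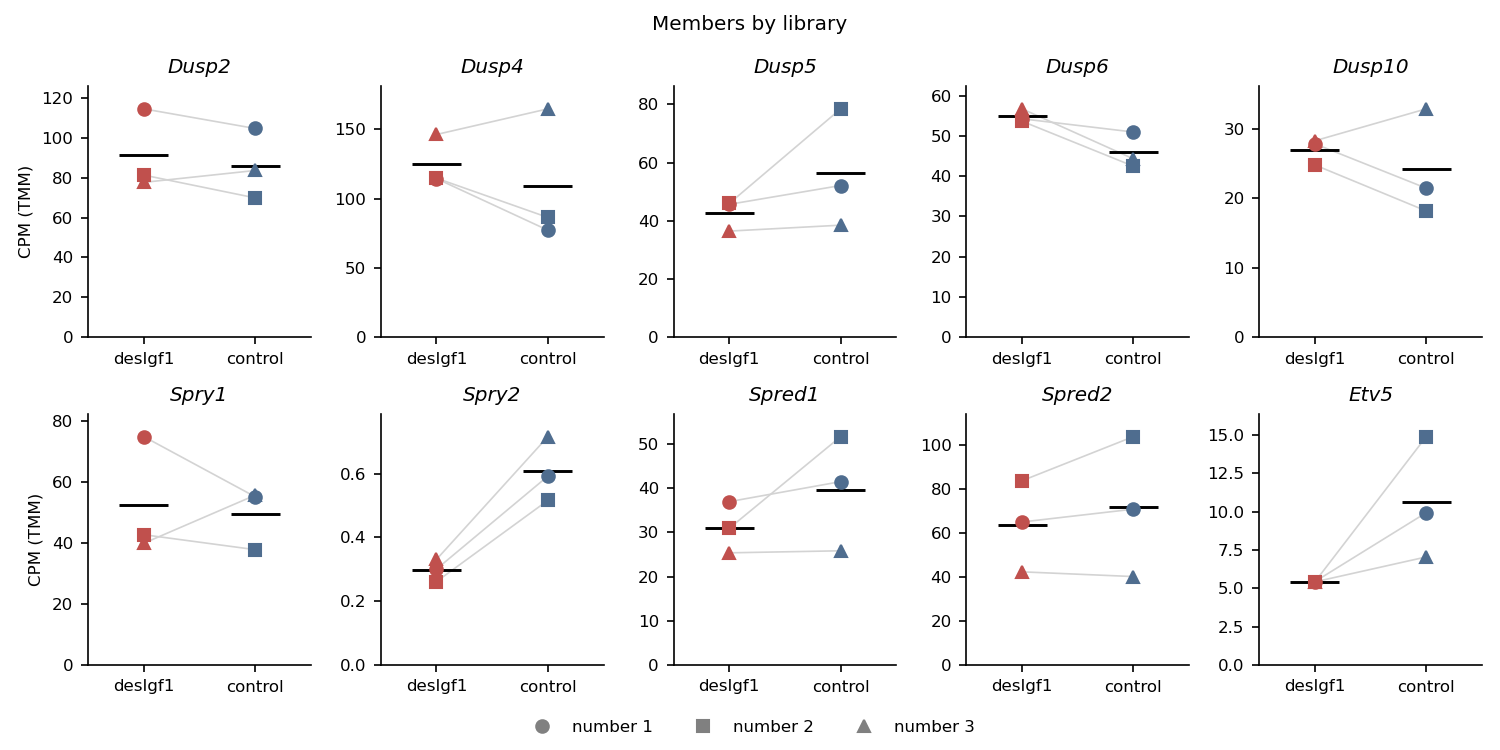
Level of each of the 10 genes in CPM (y axis, from 0) in the 3 desIgf1 libraries (red, left) and the 3 control libraries (blue, right); marker shapes give the replicate number, grey lines join libraries of the same number and black bars are group means. Etv5 and Spry2 sit lower and Dusp6 higher in all 3 desIgf1 libraries than in all 3 controls, and the other 7 genes overlap. Of all tested genes, 6.18% lay wholly below and 7.31% wholly above the controls.

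Gene coordinates are those of GENCODE M21 on GRCm38, and all 10 genes are protein-coding. Etv5 (chromosome 16, 22381309 to 22439719) was at 5.43, 5.41 and 5.42 CPM in desIgf1 libraries 1 to 3, against 9.93, 14.9 and 7.04 CPM in controls 1 to 3. All 3 desIgf1 libraries lay below all 3 controls, and the controls were the more variable group. The log2 fold change was -0.97 ± 0.28 (SE), with a 95% interval of -1.62 to -0.32, and did not pass edgeR's test (adjusted p = 0.457, and 0.192 with the block). DESeq2 gave -0.98 with an adjusted p of 0.0488, just past the threshold. The deposited counts behind these levels were 217, 228 and 262 with desIgf1 and 453, 635 and 246 in controls. Counts of that size carry a counting error of about 6.51% in the desIgf1 libraries, so the agreement of their 3 levels to a coefficient of variation of 0.183% is closer than counting error alone would give and says nothing of the precision of the group mean. Within numbers 1, 2 and 3, log2 CPM differed by -0.86, -1.45 and -0.38 (desIgf1 minus control). The smallest of these differences was in number 3. The blocked fit was repeated without both libraries of each number in turn, which leaves 1 residual degree of freedom. Without number 1 it gave -0.92 for Etv5 (edgeR adjusted p = 0.632) and called 0 of the 10 members, where 0.513% of all genes were called. Without number 2 it gave -0.63 (edgeR adjusted p = 0.167) and called 0 members, where 4.42% of all genes were called. Without number 3 it gave -1.17 (edgeR adjusted p = 0.0104) and called Etv5 and Dusp4, 2 of the 10 members, where 7.64% of all genes were called. With group only and without control library 2 alone, Etv5 was at -0.65 (edgeR adjusted p = 0.526).

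Etv4, an ETS factor of the same subfamily as Etv5 and also an ERK-induced gene, was at 2.80, 1.71 and 2.63 CPM in the desIgf1 libraries, against 6.40, 11.4 and 6.16 CPM in controls. It had the smallest p among the genes of the pathway lists in the fit with group only, and Rasa3 had it with the block (Etv4 log2 -1.75 ± 0.33, edgeR adjusted p = 0.302, 0.144 with the block and 5.3e-05 in DESeq2). Of the 26 tested ERK-induced transcripts, 1 lay wholly above and 2 (Etv4 among them) wholly below the controls. Of all tested genes, 7.31% lay wholly above and 6.18% wholly below. Etv4 and Etv5 both separated completely between the groups and had their highest value in control library 2. Both were lower in each of the 3 numbers. The third gene of this subfamily, Etv1, was below the filter, at 0 to 7 counts per library.

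Dusp6 (chromosome 10, 99263231 to 99267489) encodes the cytoplasmic phosphatase that is selective for ERK, and its transcript is another common read-out of ERK activity. It was at 54.3, 53.7 and 56.7 CPM in the desIgf1 libraries, against 51.0, 42.5 and 44.3 CPM in controls. The groups did not overlap, but the gap between the lowest desIgf1 library and the highest control was small. The log2 fold change was 0.26 ± 0.11 with a 95% interval of 0.01 to 0.51 (edgeR adjusted p = 0.608, and 0.333 with the block). Dusp6 was the steadiest member, with a highest library 1.34 times its lowest. Of the 10 members, 1 (Dusp6) lay wholly above the controls, where 7.31% of all tested genes did, and 2 (Etv5 and Spry2) lay wholly below, where 6.18% did.

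The other ERK phosphatases of the nucleus showed no common direction. Dusp5 (chromosome 19, 53529109 to 53542431), which is selective for ERK, was at 45.6, 45.9 and 36.4 CPM in the desIgf1 libraries, against 52.1, 78.5 and 38.5 CPM in controls. It was lower with desIgf1 in each number, while the groups overlapped through control library 3 (log2 -0.40 ± 0.25, interval -0.98 to 0.18, adjusted p = 0.663). Without control library 2 the log2 fold change of Dusp5 was -0.087. Dusp4 (chromosome 8, 34807297 to 34819894), which acts on ERK and JNK, was at 114, 115 and 146 CPM in the desIgf1 libraries, against 77.2, 86.4 and 165 CPM in controls. It was higher with desIgf1 in numbers 1 and 2, by 0.57 and 0.41 log2 CPM, and lower in number 3, by -0.17. Its log2 fold change was 0.19 ± 0.28 (interval -0.47 to 0.85, adjusted p = 0.858). The blocked fit gave 0.12 without number 1 (edgeR adjusted p = 1), 0.20 without number 2 (0.675) and 0.49 without number 3 (0.0360). Dusp2 (chromosome 2, 127336159 to 127338376), a phosphatase first known from activated lymphocytes, was at 115, 81.4 and 77.7 CPM in the desIgf1 libraries, against 105, 69.9 and 83.7 CPM in controls. Both number 1 libraries were its highest, and the groups overlapped throughout (log2 0.08 ± 0.20, interval -0.38 to 0.55, adjusted p = 0.919).

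Dusp10 (chromosome 1, 184013302 to 184075636) prefers p38 and JNK to ERK. It was at 27.9, 24.8 and 28.3 CPM in the desIgf1 libraries, against 21.5, 18.2 and 32.9 CPM in controls. As for Dusp4, control library 3 was its highest and controls 1 and 2 its lowest (log2 0.16 ± 0.22, interval -0.35 to 0.67, adjusted p = 0.850).

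Of the Sprouty genes, Spry1 (chromosome 3, 37639947 to 37644598) was abundant and Spry2 (chromosome 14, 105891947 to 105896819) was close to the limit of detection. Spry1, whose product is induced by the antigen receptor in T cells, was at 75.0, 42.7 and 39.9 CPM in the desIgf1 libraries, against 55.2, 37.8 and 55.7 CPM in controls. Its highest value was in desIgf1 library 1, and the 3 numbers gave differences of 0.44, 0.18 and -0.48 log2 CPM (log2 0.08 ± 0.27, interval -0.54 to 0.71, adjusted p = 0.942). Spry2 had 12, 11 and 16 counts with desIgf1 and 27, 22 and 25 counts in controls, or 0.300, 0.261 and 0.331 CPM against 0.592, 0.516 and 0.716 CPM. All 3 desIgf1 libraries were lower than all 3 controls, and each number gave a difference of -1.01 to -0.87 log2 CPM. The log2 fold change of Spry2 was -1.02 ± 0.34 (interval -1.82 to -0.22, adjusted p = 0.527, and 0.284 with the block), and counting error alone is 27.7% per library at the mean desIgf1 count. Spry4, another gene of the family, was below the filter, at 1 to 8 counts per library.

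The Spred proteins bind neurofibromin and bring it to RAS at the membrane. Spred1 (chromosome 2, 117121374 to 117182279) was at 36.9, 30.9 and 25.4 CPM in the desIgf1 libraries, against 41.5, 51.7 and 25.8 CPM in controls. It was lower with desIgf1 in each number, although by only -0.03 log2 CPM in number 3 (log2 -0.35 ± 0.26, interval -0.95 to 0.25, adjusted p = 0.701). Without control library 2 the log2 fold change of Spred1 was -0.12. Spred2 (chromosome 11, 19924375 to 20024026) was at 64.9, 83.6 and 42.2 CPM in the desIgf1 libraries, against 70.7, 104 and 40.1 CPM in controls. Its differences between numbers were larger than those between groups (log2 -0.17 ± 0.37, interval -1.03 to 0.69, adjusted p = 0.911). With the block the Spred2 interval narrowed to -0.39 to 0.14, still on both sides of 0.

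**Figure D2:**
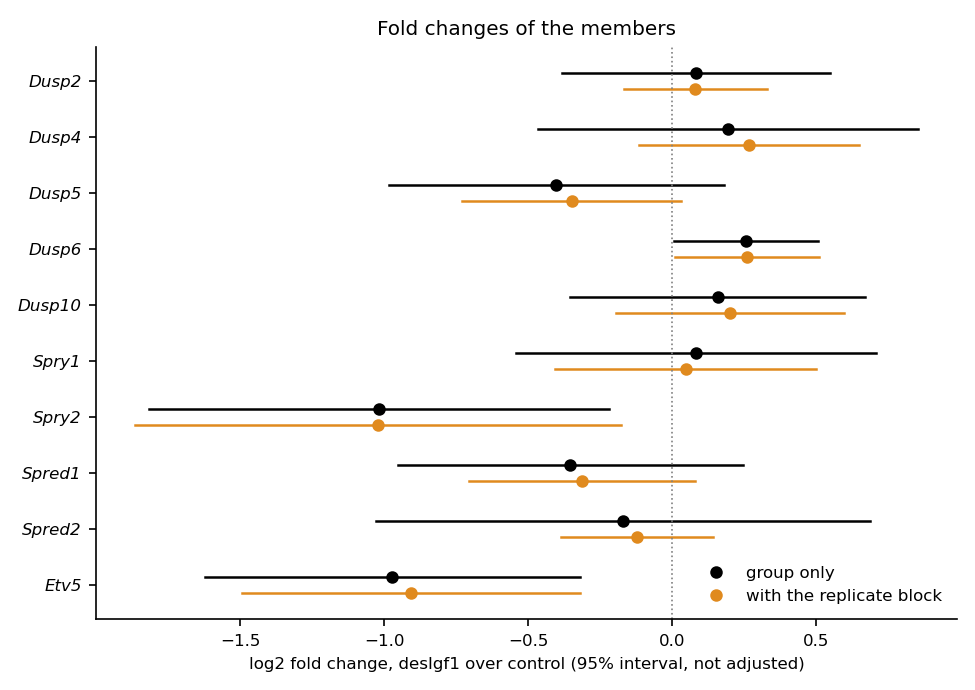
Log2 fold change of each gene, desIgf1 over control (x axis), with its 95% interval before any adjustment, from edgeR with group only (black) and with the number added as a block (orange). The intervals of Etv5 and Spry2 lie below 0 and that of Dusp6 above it, from 0.01 to 0.51, in the fit with group only, while none of the 10 genes passed after adjustment over 13846 genes.

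Several members had their highest or lowest levels in both libraries of 1 replicate number. Dusp4 and Dusp10, 2 of the 10, were higher in both number 3 libraries than in the remaining 4, a pattern that 15% of all tested genes had. Dusp5, Spred1 and Spred2, 3 of the 10, were lower in both number 3 libraries than in the remaining 4, as were 12.5% of all tested genes. Control library 2 held the highest level of Dusp5, Spred1, Spred2 and Etv5 and the lowest level of Dusp2, Dusp6, Dusp10 and Spry1. How many of all tested genes had their highest or lowest level in that library was not counted, so this is not a trait shown to be particular to the members. Over the 6 libraries the closest profiles among members, after each gene's mean was subtracted, were those of Dusp5 and Spred1, at a root mean square distance of 0.12 log2 CPM. Dusp2 and Spry1 (0.15) and Dusp4 and Dusp10 (0.18) came next.

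**Figure D3:**
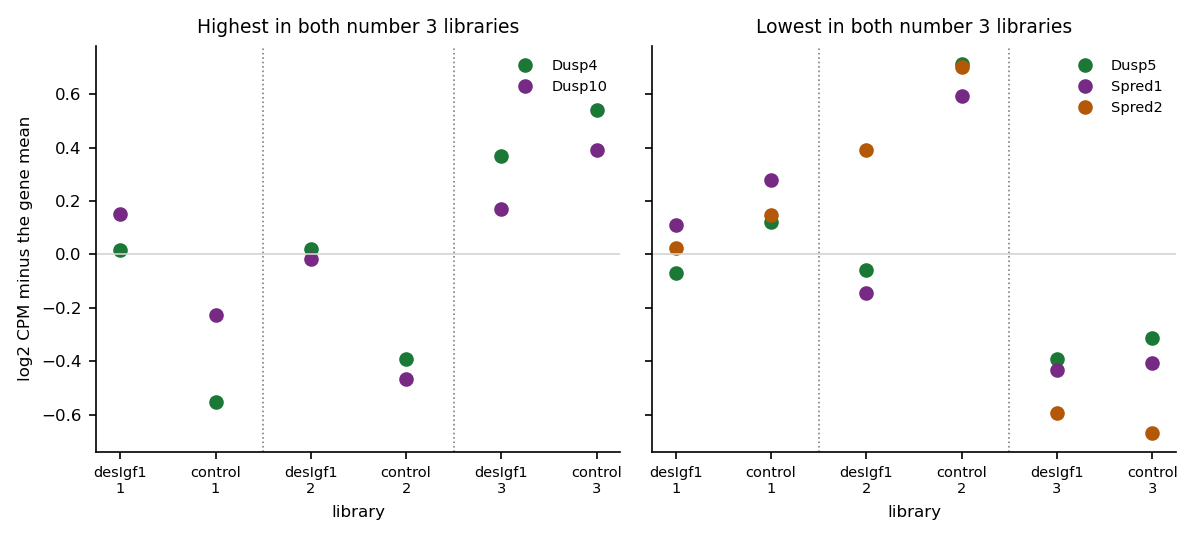
Log2 CPM minus the gene's mean over the 6 libraries (y axis) for Dusp4 and Dusp10 (left) and for Dusp5, Spred1 and Spred2 (right), with the desIgf1 library left of the control library within each replicate number. Dusp4 and Dusp10 are highest, and Dusp5, Spred1 and Spred2 lowest, in both number 3 libraries.

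Levels of different genes were compared per kilobase of exon (RPKM, from CPM and the union of GENCODE M21 exons). Dusp2 and Dusp4 had the highest means over the 6 libraries, and in control library 2 Dusp5 (31.7 RPKM) was level with Dusp4 (31.5 RPKM). Dusp2 was at 45.6 ± 10.2 RPKM with desIgf1 and 43.0 ± 8.76 RPKM in controls (SD, n = 3 each), and Dusp4 was at 45.7 ± 6.68 RPKM with desIgf1 and 39.9 ± 17.6 RPKM in controls. Dusp5, Spry1, Dusp6 and Spred2 followed with group means of 13.8 to 18.1 RPKM in desIgf1 libraries and 14.7 to 22.8 RPKM in controls. The ranges of neighbours in this order overlapped over the 6 libraries down to Spred1, so the order of adjacent genes is not resolved. Genes further apart can be resolved: the lowest library of Dusp2 (34.9 RPKM) was above the highest of Dusp5 (31.7 RPKM). Dusp10 was at 8.88 ± 0.624 RPKM with desIgf1 and 7.96 ± 2.54 RPKM in controls, and Spred1 at 4.58 ± 0.854 RPKM with desIgf1 and 5.85 ± 1.92 RPKM in controls. Etv5 lay below Spred1 in every library, at 1.32 ± 0.00242 RPKM with desIgf1 and 2.59 ± 0.968 RPKM in controls. Spry2 lay below Etv5 in every library, at 0.143 ± 0.0167 RPKM with desIgf1 and 0.291 ± 0.0483 RPKM in controls. Of the summed level per length of the 10 genes, Dusp2 took 26.4% in desIgf1 libraries and 25.4% in controls, and Dusp4 took 26.4% in desIgf1 libraries and 23.6% in controls. With the length of the longest transcript in place of the union, the mean of Dusp2 over all 6 libraries was 54.8 RPKM, against 44.3 RPKM with the union, and the order of the 10 genes by that mean was the same.

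**Figure D4:**
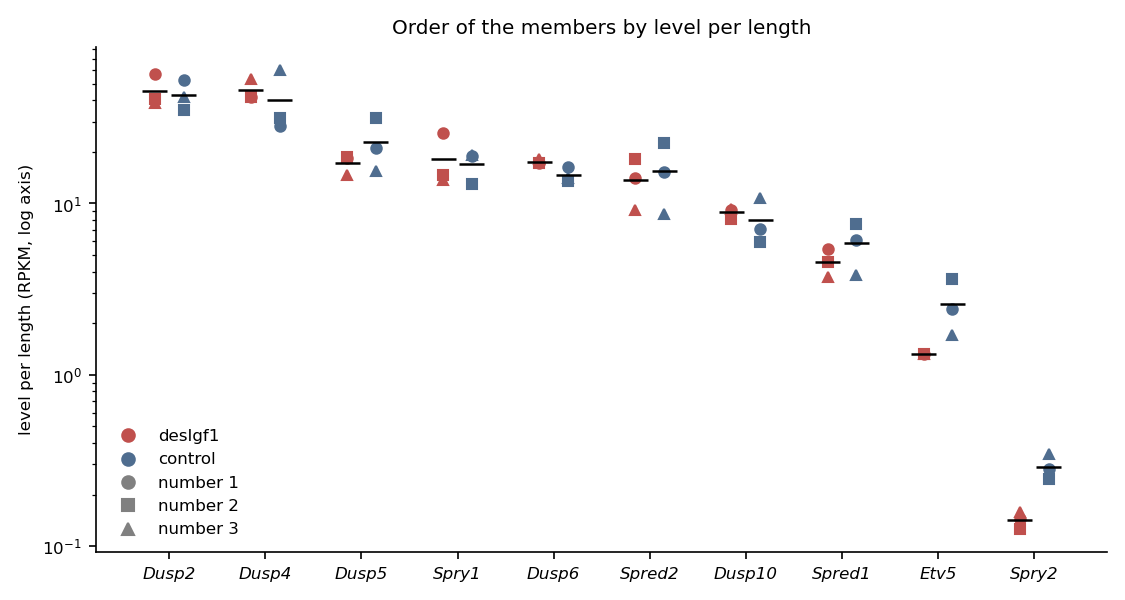
Level per length of each gene in RPKM (log axis) in the desIgf1 libraries (red, left of each pair) and the control libraries (blue, right), ordered by the mean over all 6; marker shapes give the replicate number and bars the group means. Dusp2 and Dusp4 have the highest means, neighbours down to Spred1 overlap, and Etv5 and then Spry2 lie apart at the low end.

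The rest of the pathway was read from 5 lists chosen by function, with earlier results of these data known. In edgeR, 0 genes of these lists passed the adjusted threshold in either fit. With group only, an unadjusted p under 0.05 was reached by 0 of 16 other MAP kinase phosphatases, 3 of 19 other inhibitors of RAS and receptor tyrosine kinases, 4 of 29 components of the ERK relay, 3 of 26 ERK-induced transcripts and 3 of 20 genes of the p38 and JNK cascades, where 8.16% of all tested genes reached it. With the block these counts were 3 of 16, 5 of 19, 4 of 29, 7 of 26 and 5 of 20, where 14.3% of all tested genes reached it. Among other MAP kinase phosphatases, 16 of 18 genes were tested and had a median log2 fold change of 0.14. Of these 16 genes, 0 lay wholly above and 0 wholly below the controls, where 7.31% and 6.18% of all tested genes did. Dusp14 was at 12.5, 10.4 and 17.1 CPM in the desIgf1 libraries, against 15.4, 18.4 and 22.7 CPM in controls (edgeR adjusted p = 0.619), and Dusp1, an early-response phosphatase of p38 and JNK, averaged 32.8 ± 4.93 CPM with desIgf1 and 26.7 ± 5.43 CPM in controls (SD, n = 3 each; edgeR adjusted p = 0.663). Ppp2ca, the catalytic subunit of protein phosphatase 2A, averaged 355 ± 19.4 CPM with desIgf1 and 299 ± 42.4 CPM in controls (SD, n = 3 each; edgeR adjusted p = 0.628). All 3 genes overlapped between the groups. Within every number the desIgf1 library was below its control for Dusp14 and above it for Dusp1 and Ppp2ca, and these were the 3 phosphatases with an unadjusted p under 0.05 in the blocked fit.

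Among other inhibitors of RAS and receptor tyrosine kinases, 19 of 21 genes were tested and the median was -0.00318. Cblb, a ubiquitin ligase that restrains T cell activation, was at 430, 556 and 332 CPM in the desIgf1 libraries, against 243, 230 and 305 CPM in controls (log2 0.76 ± 0.20, edgeR adjusted p = 0.406, DESeq2 adjusted p = 0.0420). Rasa3, a GTPase-activating protein of RAS and RAP1, was at 149, 125 and 141 CPM in the desIgf1 libraries, against 280, 160 and 258 CPM in controls (log2 -0.75 ± 0.20, edgeR adjusted p = 0.430, DESeq2 adjusted p = 0.0464). Dab2ip, another such protein, was at 1.35, 2.42 and 2.23 CPM in the desIgf1 libraries, against 3.07, 4.88 and 3.64 CPM in controls (edgeR adjusted p = 0.527). Each of the 3 separated completely between the groups. Of the 19 tested genes, 1 lay wholly above and 2 wholly below the controls, where 7.31% and 6.18% of all tested genes did.

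Components of the ERK relay itself were tested in full, 29 of 29, with a median of 0.05. Of these 29 genes, 5 lay wholly above and 3 wholly below the controls, where 7.31% and 6.18% of all tested genes did. Ksr1 and Rras were among those above, and Rasgrp2 among those below. Rasgrp2, an exchange factor that activates RAP1, was at 16.9, 15.4 and 11.7 CPM in the desIgf1 libraries, against 40.7, 20.5 and 35.2 CPM in controls (log2 -1.13 ± 0.27, edgeR adjusted p = 0.378, DESeq2 adjusted p = 0.00501). Ksr1, the scaffold that holds RAF, MEK and ERK together, was at 84.5, 83.1 and 85.5 CPM in the desIgf1 libraries, against 57.4, 56.5 and 68.3 CPM in controls (log2 0.47 ± 0.11, edgeR adjusted p = 0.360, DESeq2 adjusted p = 0.0280). Rras, a RAS-related GTPase, was at 23.7, 22.1 and 18.1 CPM in the desIgf1 libraries, against 17.7, 14.0 and 13.3 CPM in controls (edgeR adjusted p = 0.527).

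Of 31 genes listed as ERK-induced transcripts 26 were tested, with a median of 0.06. The list includes Srf, Elk1, Elk3 and Elk4, and whether ERK induces each listed gene in these cells was not tested. After Etv4, the smallest p-values were those of Nr4a3 and Phlda3. Nr4a3, an orphan nuclear receptor gene induced by the antigen receptor, was at 130, 91.9 and 75.0 CPM in the desIgf1 libraries, against 65.8, 52.5 and 61.9 CPM in controls (log2 0.72 ± 0.20, edgeR adjusted p = 0.452). Phlda3, which encodes a pleckstrin homology protein, averaged 8.81 ± 2.86 CPM with desIgf1 and 13.5 ± 1.84 CPM in controls (edgeR adjusted p = 0.608). Among 20 tested genes of the p38 and JNK cascades, out of 21, the median was 0.04. Mapkapk2, a kinase activated by p38, was at 448, 479 and 457 CPM in the desIgf1 libraries, against 346, 351 and 353 CPM in controls (log2 0.40 ± 0.09, edgeR adjusted p = 0.322, DESeq2 adjusted p = 0.0113), with no overlap. Map2k6 and Gadd45b were also higher in all 3 desIgf1 libraries, with edgeR adjusted p-values of 0.526 and 0.566. Of the 20 p38 and JNK genes, 5 lay wholly above and 1 wholly below the controls, where 7.31% and 6.18% of all tested genes did.

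**Figure D5:**
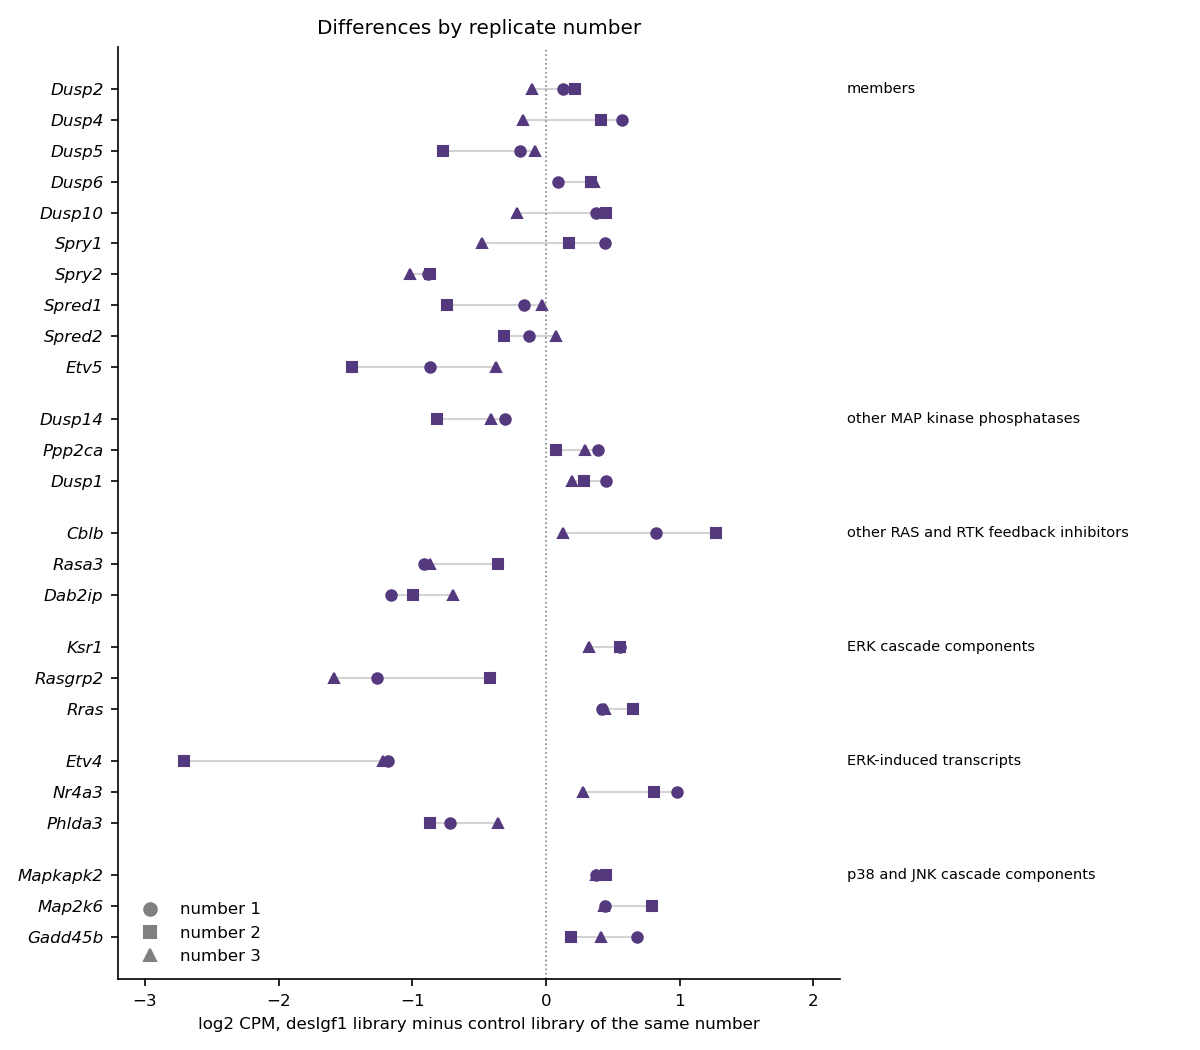
Difference in log2 CPM between the desIgf1 and the control library of the same number (x axis; positive is higher with desIgf1) for the 10 members and for the 3 genes with the smallest p in each of the 5 pathway lists; marker shapes give the replicate number and grey lines the range. Of the members, Dusp5, Spry2, Spred1 and Etv5 are below 0 and Dusp6 is above 0 in all 3 numbers. Of the other 15 genes, Dusp14, Rasa3, Dab2ip, Rasgrp2, Etv4 and Phlda3 are below 0 and the remaining 9 above 0 in all 3. The share of all tested genes with the same sign in all 3 numbers was not counted. The 15 genes were picked by their small p, which favours a common sign, so their common sign is not separate evidence.

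Genes with profiles most like those of the 3 members with the smallest p were taken from 9818 genes at a mean of at least 5 CPM, by root mean square distance over the 6 libraries after each gene's mean was subtracted. Nearest to Etv5 were Ube2e2, Rbfox2, Angptl2, Hmga1 and Pkn3, at 0.14 to 0.17 log2 CPM, where the median of all 9818 genes was 0.57. Nearest to Spry2 were Ccs, Mettl13, Hivep3, Thbs1 and Vsig10, at 0.14 to 0.21, where the median was 0.51. At 11 to 27 counts per library, Spry2 carries a counting error of 27.7% at the mean desIgf1 count, so its neighbours are uncertain. Nearest to Dusp6 were Mterf2, Eif2ak2, Icam1, 4933427D14Rik and Smim3, at 0.04 to 0.06, where the median was 0.23.

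The labelled cell type was checked by its markers. All 7 T cell markers and all 5 Th17 markers had counts in every library, with summed levels of 5362 to 5890 CPM and 1421 to 1772 CPM in desIgf1 libraries and of 5251 to 5662 CPM and 1035 to 1221 CPM in controls. The summed Th17 level did not overlap between groups (two-sided exact permutation p = 0.1, the smallest that 3 libraries against 3 can give), and the T cell level did (exact p = 0.6). Il17f had the highest mean of the 5 Th17 markers and reached 1135 CPM, so the sum does not speak for each marker. The part of the Th17 marker level in the results for Etv5, Spry2 and Dusp6 was not tested. Markers of cells that the splenocytes could have added were low and overlapped between the groups, with exact p-values of 0.3 to 0.7. B cell markers (4 of 6 above 0 in every library) summed to 1.30 to 3.91 CPM with desIgf1 and 1.95 to 6.16 CPM in controls. Macrophage and monocyte markers (6 of 7) summed to 10.3 to 15.4 CPM with desIgf1 and 4.90 to 12.9 CPM in controls. Dendritic cell markers (3 of 6, Xcr1 and Siglech at 0) summed to 1.02 to 3.31 CPM with desIgf1 and 0.745 to 2.29 CPM in controls. CD8 T or NK cell markers (3 of 5, Ncr1 at 0) summed to 8.09 to 15.5 CPM with desIgf1 and 5.55 to 10.5 CPM in controls. Neutrophil markers (0 of 4) reached 0.190 CPM with desIgf1 and 0.716 CPM in controls. The sort on hCD2 selects against such cells. Their part in the level of Spry2, itself under 1 CPM, was not tested.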

How the data were processed

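The deposited values are whole-number read counts per gene, not normalized by the authors. Per the submitters' processing notes, HTSeq 0.7.2, STAR 2.5.3, Trim Galore 0.4.5, SAMtools 0.1.18, R 3.4.3 and DESeq2 1.18.1 belong to the submitters' pipeline on build GRCm38 (mm10). The roles and settings of these tools and the annotation release were not given in the sources used here. The use of strand was not stated either, although the names of the deposited counts hold the word reverse. Alignments that were not unique, 46.4 to 48.7% of entries, are outside the gene counts, as are reads in no gene (13.5 to 15.7% of unique reads) and ambiguous reads (0.712 to 0.761%). Library preparation used a stranded kit for mRNA, per the labels. Symbols, coordinates and exon lengths came from GENCODE M21, which matched 37607 gene identifiers. In that annotation Dusp5 and Spry1 each overlap exons of an opposite-strand gene, so their counts are uncertain if strand was not used.

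Counts were fitted with edgeR 4.0.16 in R 4.3.3 (robust quasi-likelihood test, TMM, group only, genes kept by filterByExpr at minimum count 10). P-values were adjusted by the Benjamini-Hochberg method across the 13846 tested genes, and the threshold was 0.05. The standard error is the size of the log2 fold change divided by the square root of F, and 95% intervals use the test's degrees of freedom. CPM use TMM factors, and log2 CPM a prior count of 2. The procedure was run on simulated counts with the same dispersion for every gene, no effect of the replicate number and planted changes larger than any member's. That run therefore does not measure how the procedure performs on these libraries. No libraries of a group were copies of each other (chi-square per degree of freedom of at least 40.5). Deviations from group means correlated at 0.59, 0.32 and 0.55 across genes between same-numbered libraries, and at -0.49 to 0.05 between others, so the numbers were taken to pair the libraries; this rests on the data, since no label says so. The block leaves 2 residual degrees of freedom. Alternatives were RLE and upper-quartile scaling, other filters, DESeq2 1.42.0, limma voom 3.58.1, the block, and leaving out libraries. All members were named, with the 3 genes of smallest p in each pathway list and 5 nearest profiles for each of 3 members; Etv1 and Spry4 were added once their values were known. The members and lists were chosen with earlier results of these data known.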

Additional observations from a re-analysis of the deposited data

How the results depend on the processing

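The count of genes called in edgeR, 0 with group only, was 16 without a filter on low counts, 44 with the replicate block, 208 in DESeq2 and 0 with any 1 library left out. With the replicate block and both libraries of number 1, 2 or 3 left out (1 residual degree of freedom) it was 72, 620 and 1069. The cause was not tested. DESeq2 called 1 of 10 members, 0 of 18 other MAP kinase phosphatases and 2 of 20 other RAS and receptor inhibitors. It also called 2 of 29 ERK cascade components, 1 of 31 ERK-induced transcripts and 1 of 21 p38 or JNK cascade genes. These list totals include genes below edgeR's filter on low counts. Of the 14097 genes with a DESeq2 adjusted p, 1.48% were called. The blocked fit without number 1 called 0 members and 0 listed genes (0.513% of all). Without number 2 it called 0 members, 3 of 19 other inhibitors, 2 of 29 ERK cascade, 3 of 26 ERK-induced and 2 of 20 p38 or JNK genes (4.42% of all). Without number 3 it called 2 members, 1 of 16 other phosphatases, 4 of 19 other inhibitors, 2 of 29 ERK cascade and 6 of 26 ERK-induced genes (7.64% of all). List counts under these alternatives were added after the data were seen. The median of the members was 0.082 with a minimum count of 50, where Spry2 is not tested, -0.22 to 0.034 with 1 library left out, and -0.14 in the blocked fit without number 1. With 1 library left out the sign changed for Dusp2 (-0.11 to 0.25), Dusp4 (-0.0047 to 0.61), Dusp10 (-0.0092 to 0.45), Spry1 (-0.26 to 0.22) and Spred2 (-0.46 to 0.20). Spry1 was also at -0.15 and -0.015 in the blocked fits without number 1 and number 2. The signs of Etv5 (-1.19 to -0.63), Spry2 (-1.13 to -0.89), Dusp6 (0.20 to 0.35), Dusp5 (-0.61 to -0.087) and Spred1 (-0.58 to -0.097) were the same in every alternative that tested them. Adjusted p-values of Etv5 ranged from 0.0104 to 0.9995 over the alternatives. At 11 to 27 counts per library, depth limits the precision of Spry2.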

Other observations

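The coefficient of variation between libraries was lower with desIgf1 than in controls for 8 of the 10 members, the exceptions being Dusp2 (22.3% with desIgf1 and 20.4% in controls) and Spry1 (37.0% with desIgf1 and 20.5% in controls). Of all tested genes with a defined value, 60.8% had the lower coefficient of variation with desIgf1. For Dusp4 the values were 14.6% with desIgf1 and 44.0% in controls, for Dusp10 7.03% with desIgf1 and 31.9% in controls, and for Dusp6 2.97% with desIgf1 and 9.74% in controls.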
